A study of Homo sapiens and Mus musculus with 29 samples.

Results

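S100 and annexin genes were followed in RNA-seq data of pancreatic cancer models. Of 30 members named by symbol, 18 S100 and 12 annexin genes, 23 had a mean of at least 0.3 RPKM (read counts scaled to gene length and library depth) in the human HPAF-II samples, among 19900 genes at that level. These were 12 S100 and 11 annexin genes. In the mouse KPC lines 25 orthologs reached it, 13 S100 and 12 annexin genes, among 16682 genes. HPAF-II is an established human line of pancreatic ductal adenocarcinoma (PDAC). Its cells were grown as tumors in the pancreas of NSG mice, which lack functional lymphocytes. The 21 samples were 3 control tumors (CRISPR Cas-9 with an empty vector), 4 tumors labeled HNF4G-KO (CRISPR knockout of HNF4G with an empty vector), 3 labeled FOXA1-OE (CRISPR Cas-9 control cells with lentiviral FOXA1), 5 tumors of 4 mice labeled HNF4G-KO + FOXA1-OE, 2 peritoneal metastases labeled HNF4G-KO and 4 metastases of 3 mice labeled HNF4G-KO + FOXA1-OE. The knockout cells are a pool of CRISPR clones with frameshift mutations, so cells of all knockout mice share a source. No metastases of control or FOXA1-OE mice were analysed here. The KPC samples, 4 from a cultured tumor line and 4 from a cultured liver metastasis line, stand for 1 line each of a mouse PDAC model, so their p-values measure only the spread between libraries of a line, which may be technical.

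S100 proteins are small calcium-binding proteins with EF-hand motifs that act mostly as dimers inside cells, and some are also secreted. Annexins bind phospholipid membranes when calcium is present and take part in membrane repair, trafficking and exocytosis. The families meet in complexes, of which that of S100A10 with ANXA2 is the best known, and several members, S100P and S100A4 among them, are known for high levels in pancreatic cancer.

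Most S100 genes stand in a cluster on chromosome 1. In the GENCODE annotation of GRCh38, S100A6 lies at chr1:153534599-153536244, S100A16 at chr1:153606886-153613145, and S100A10 further off, at chr1:151982915-151993859. S100A3 (chr1:153547329-153549258) lies entirely inside the span annotated for S100A4 on the same strand, and S100A1 overlaps S100A13 on the opposite strand, so reads of these neighbors can be hard to tell apart. Annexin genes are dispersed: ANXA10 lies at chr4:168092537-168187736 and ANXA6 at chr5:151100706-151157815.

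The 250 bases before the RefSeq start (GRCh38.p14, 5′ to 3′ on the strand of the gene) are shown for the 4 members that passed the test in a tumor comparison, with the outermost listed start where RefSeq has several. Capitals mark matches on either strand to motifs of 3 kinds. The first is the site of AP-1 factors, TGANTCA. The TATA box was searched as TATAAA. The GC box, bound by SP1, was searched as GGGCGG.
S100A16, chr1:153613138-153613387, minus strand: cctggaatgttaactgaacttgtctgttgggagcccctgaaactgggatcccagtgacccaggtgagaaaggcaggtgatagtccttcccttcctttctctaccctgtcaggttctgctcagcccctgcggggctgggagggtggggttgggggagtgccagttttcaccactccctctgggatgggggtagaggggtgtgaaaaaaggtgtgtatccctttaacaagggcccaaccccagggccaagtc
S100A3, chr1:153549259-153549508, minus strand: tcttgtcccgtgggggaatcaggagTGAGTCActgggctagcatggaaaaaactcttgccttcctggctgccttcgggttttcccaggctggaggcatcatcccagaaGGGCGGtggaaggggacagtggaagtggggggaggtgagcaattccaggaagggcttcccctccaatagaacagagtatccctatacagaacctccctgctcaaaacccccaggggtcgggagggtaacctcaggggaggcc
ANXA10, chr4:168092287-168092536, plus strand: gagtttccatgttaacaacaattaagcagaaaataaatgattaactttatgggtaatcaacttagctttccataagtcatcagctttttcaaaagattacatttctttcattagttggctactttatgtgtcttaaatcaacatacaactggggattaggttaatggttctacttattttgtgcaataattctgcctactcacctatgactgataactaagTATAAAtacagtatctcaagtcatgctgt
ANXA6, chr5:151157780-151158029, minus strand: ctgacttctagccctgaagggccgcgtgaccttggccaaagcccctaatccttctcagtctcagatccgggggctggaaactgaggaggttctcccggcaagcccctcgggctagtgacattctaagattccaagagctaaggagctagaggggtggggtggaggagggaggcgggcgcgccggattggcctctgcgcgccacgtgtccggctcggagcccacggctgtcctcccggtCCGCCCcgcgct
The ANXA10 window, with 31.2% G and C, is the only one of the 4 with a TATA match, which starts 29 bases before the gene, and has no GC box. S100A3 has an AP-1 match 225 bases before the start and a GC box, ANXA6 has a GC box 12 bases before the start, and S100A16 has none of these letters in its outermost window. Over all 35116 RefSeq windows of the same length, 10.72% held TATAAA, 6.57% TGANTCA and 42.64% GGGCGG. Among 31 windows of 22 members found in RefSeq, 7, 4 and 13 did. Matches to the forkhead motif TGTTTAC (2.98% of all windows) and the HNF4 motif CAAAGTCCA (0.32%) were found in none of the 31 windows, which says only that these letters are absent there. In the 4 windows shown, the matches do not overlap each other.

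Some libraries stood apart from their labels or groups. HNF4G mRNA was at 2.48 to 3.47 RPKM in control tumors and 5.72 to 8.42 RPKM in tumors labeled HNF4G-KO. HNF4G mRNA was thus higher, not lower, under the knockout label (log2 fold change 1.07, limma adjusted p = 0.0813), and the reason was not tested. The mRNA level is no check on the protein, and directions follow the labels. Control tumors held 0.519 to 0.932 RPKM of FOXA1. The FOXA1-OE tumors held 6.32, 8.18 and 0.763 RPKM, so that tumor 3 lay within the control range, against its label. In tumors labeled HNF4G-KO + FOXA1-OE it ranged from 4.65 to 23.2 RPKM, but in 3 of the 4 metastases with this label it was between 0.535 and 1.56 RPKM. All 6 epithelial marker genes were at 1 RPKM or more in each human group. Sums of 6 host fibroblast markers, whose mouse reads can align to the human genome, ranged from 29.5 to 328.7 RPKM. Only 3 or 4 of the 6 averaged 1 RPKM or more in a group. Sums of 8 host neutrophil and myeloid markers ranged from 58.0 to 745.8 RPKM, with only 1 or 2 of the 8 at that level in a group. Neither S100A8 nor S100A9, the defining S100 proteins of neutrophils, reached 0.3 RPKM on average. Depth, worked out from the steps between RPKM values, was 33.1 to 69.6 M reads in HPAF-II libraries and 30.1 to 44.4 M in KPC libraries. The share of all RPKM in genes of under 1000 exon bases was 24.0% to 29.8% in HNF4G-KO tumors and 28.6% to 39.6% in control tumors, but 49.2% in FOXA1-OE tumor 3 and 41.7%, 53.8% and 47.6% in HNF4G-KO + FOXA1-OE tumors 2, 4 and 5. Of the S100 members kept, S100A3, S100A4, S100A6, S100A11 and S100P have under 1000 exon bases. The others do not, S100A16 (1701 bases) among them. The part of this difference in the results below was not tested beyond the fits that hold total RPKM, a different quantity, as a covariate.

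The 23 human members ranged in mean level from 0.704 to 4371 RPKM. S100A6, a calcium sensor of proliferating epithelium, had the highest mean over the 21 samples (4371 RPKM), followed by S100A11 (1728 RPKM), a partner of ANXA1, and S100A10 (506 RPKM), which holds ANXA2 in a complex at the membrane. S100P, S100A14, S100A4 and S100A16 had means from 192 to 321 RPKM. ANXA2 was the highest annexin (237 RPKM), ahead of ANXA1 (190 RPKM), an inhibitor of inflammation, and ANXA10 (145 RPKM), an annexin of gastric epithelium that lacks most of the usual calcium-binding sites. ANXA5, which binds phosphatidylserine, was at 78.6 RPKM, and ANXA4, ANXA11, ANXA3, ANXA7 and ANXA9 ranged from 23.5 to 39.6 RPKM. S100A13, a carrier in the release of growth factors without a signal peptide, was at 29.3 RPKM. ANXA13, an annexin of gut epithelium, S100A2, S100A5 and S100A3 had means from 2.47 to 9.01 RPKM. ANXA6, known from muscle and other mesenchymal tissue, and S100A1, known from heart and muscle, were the lowest of those kept, at 1.46 and 0.704 RPKM. Reads of ANXA2 can be split with its processed pseudogenes, so its level is uncertain. The 7 members under the limit were S100A9 (0.192 RPKM), S100G (0.182 RPKM), ANXA8 (0.109 RPKM), S100A7 (0.0916 RPKM), S100B, S100Z and S100A8, and of these S100A8 was listed at 0 in all 21 samples.

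As a family, the 12 S100 genes took 1.23% to 2.88% of all RPKM of a library and the 11 annexins 0.0896% to 0.327%. The annexin share was lowest in FOXA1-OE tumor 3 (0.0896%) and HNF4G-KO + FOXA1-OE tumors 5 (0.111%) and 4 (0.132%). Those are the libraries with the highest share of RPKM in short genes. The S100 share was 2.31%, 2.70% and 1.36% in the same libraries, the first pair of which lies within the range of the control tumors (1.79% to 2.88%).

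**Figure D1:**
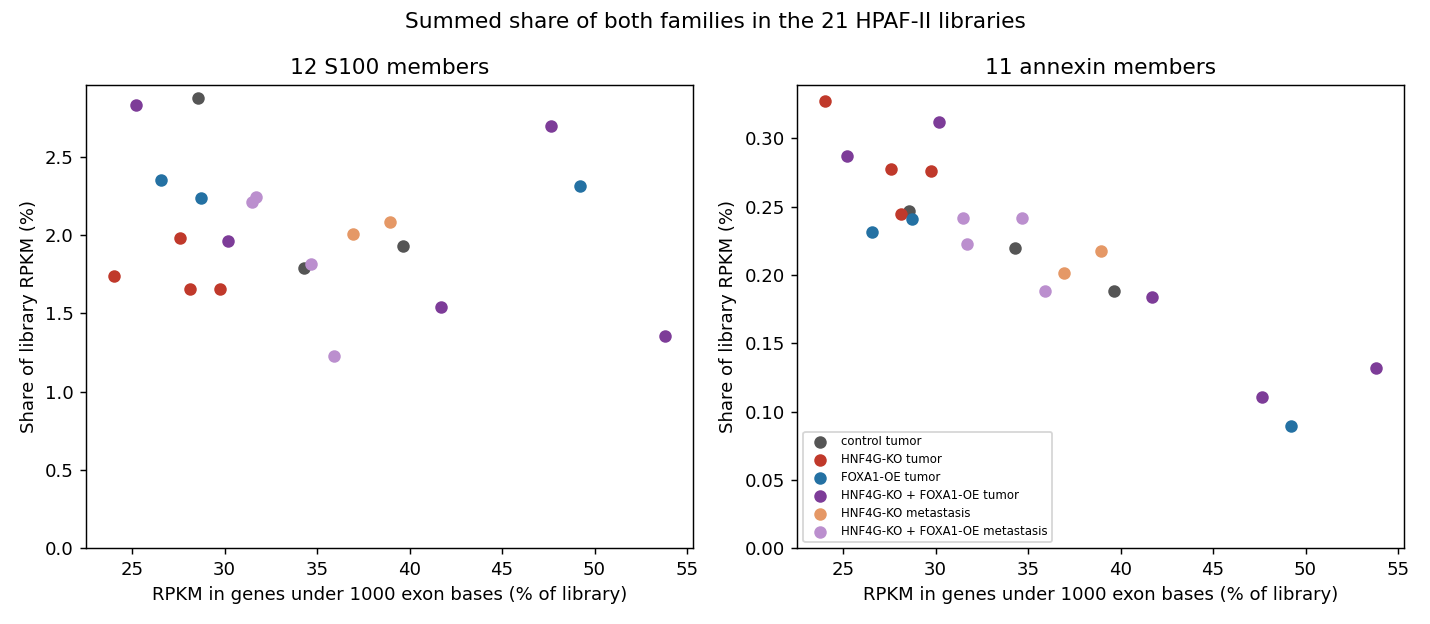
Share of library RPKM taken by the 12 S100 members (left) and the 11 annexin members (right), in %, against the share of RPKM in genes of under 1000 exon bases, for the 21 HPAF-II libraries colored by group (1 point per library). Annexin shares are lowest, from 0.0896% to 0.132%, in the 3 libraries furthest to the right, while S100 shares there range from 1.36% to 2.70%.

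The HNF4G-KO label was examined first, in 4 HNF4G-KO tumors against 3 control tumors. ANXA10 rose, and S100A16, S100A3 and ANXA6 fell. These 4 of 23 members had an adjusted p-value under 0.05 (limma on log2(RPKM + 1), Benjamini-Hochberg adjustment over 19900 genes), against 9.33% of all genes tested, 987 higher and 870 lower. Of the 12 S100 genes, 2 were called lower and none higher, and 11 of the 12 fold changes were negative, with a median of -0.50 beside -0.0022 over all genes. Of the 11 annexins, 1 was called higher and 1 lower, 6 fold changes were positive, and the median was 0.16.

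ANXA10 was at 97.9, 90.4 and 94.6 RPKM in control tumors and at 221, 233, 193 and 186 RPKM in HNF4G-KO tumors. All knockout tumors were above all control tumors, and the spread within each group was small beside the difference. Control tumors averaged 94.3 ± 3.74 RPKM (SD, n = 3), knockout tumors 208.3 ± 22.2 RPKM (SD, n = 4). On the log2 scale this was a rise of 1.13 (SE 0.31, limma adjusted p = 0.0362). It was the member with the largest fold change of the comparison and the only one called higher.

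S100A16, a widely expressed S100 protein, was at 206, 261 and 278 RPKM in control tumors and 175, 114, 119 and 149 RPKM in HNF4G-KO tumors. The groups did not overlap. Control tumors averaged 248 ± 37.4 RPKM (SD, n = 3), knockout tumors 139.5 ± 28.2 RPKM (SD, n = 4), and the log2 fold change was -0.84 (SE 0.21, limma adjusted p = 0.0298). S100A3, best known from the hair cuticle, was at 1.90, 2.65 and 4.18 RPKM in control tumors and 1.57, 1.12, 1.08 and 0.996 RPKM in HNF4G-KO tumors. Control tumor 3 was the highest and tumor 1 of the knockout came nearest to the controls. The log2 fold change of S100A3 was -0.80 (SE 0.23, limma adjusted p = 0.0422).

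ANXA6 was at 1.67, 2.48 and 1.29 RPKM in control tumors and 0.899, 0.865, 0.692 and 0.781 RPKM in HNF4G-KO tumors. Every knockout tumor was lower, at a level near 1 RPKM. Its log2 fold change was -0.62 (SE 0.17, limma adjusted p = 0.0417), a value that the pseudocount of 1 understates at this level. Host fibroblast marker sums were 159, 155 and 44.2 RPKM in control tumors 1 to 3 and between 38.5 and 57.4 RPKM in knockout tumors. With the mean of these markers as a covariate the ANXA6 fold change was -0.43 (limma adjusted p = 0.0702). Fewer cells of a type and less RNA per cell cannot be told apart in bulk samples.

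In a two-sided exact permutation test of each of the 4 genes p was 0.0571, the smallest value that 3 against 4 tumors allow. Each adjusted p was also close to the threshold: without control tumor 2 none of the 4 passed (adjusted p from 0.126 to 0.202), nor without HNF4G-KO tumor 2, 3 or 4. Without control tumor 1, 2 members passed (S100A16 and S100A3), and 1 without control tumor 3 or HNF4G-KO tumor 1. Conversely, 8 members passed without FOXA1-OE tumor 3 and HNF4G-KO + FOXA1-OE tumor 5, which enter this comparison only through the estimate of the spread, and 9 passed in a fit of these 2 groups alone. S100A2, S100A11, ANXA5 and ANXA4 were gained in both fits.

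Other S100 genes did not pass the test. With the host fibroblast markers as a covariate, however, S100A2 (-1.39, adjusted p = 0.0103), S100A11 (-0.89, adjusted p = 0.0450) and S100A14 (-0.91, adjusted p = 0.0476) passed, and all 12 S100 fold changes were negative with a median of -0.90. The values that follow are without it. S100A2, a p53 target of squamous epithelium, was at 7.43, 9.45 and 14.2 RPKM in control tumors and 5.42, 3.58, 5.54 and 3.59 RPKM in HNF4G-KO tumors, with no overlap (log2 fold change -1.01, limma adjusted p = 0.0686). S100A14, an epithelial S100 protein, had a fold change of -0.75 (adjusted p = 0.0917) and S100A11 one of -0.65 (adjusted p = 0.168). S100A13 (-0.51), S100A6 (-0.49), S100A4 (-0.45), S100A10 (-0.39), S100A5 (-0.28) and S100A1 (-0.16) had smaller fold changes of the same sign, and S100P alone had a positive one (0.20). S100P was tight in the knockout, between 284 and 303 RPKM in the 4 tumors, and ranged from 216 to 362 RPKM in controls. Among annexins, ANXA5 had a fold change of -0.63 (adjusted p = 0.168) with groups that did not overlap, 107 to 112 RPKM against 65.4 to 77.3 RPKM. ANXA13 (0.62), ANXA4 (0.50), ANXA7 (0.31), ANXA11 (0.23), ANXA1 (0.16), ANXA9 (-0.06), ANXA2 (-0.16) and ANXA3 (-0.45) did not pass either. A fit with total RPKM as a covariate was a choice made after seeing the data. Total RPKM was lower in every HNF4G-KO tumor than in every control tumor, so this fit cannot separate the label from total RPKM. In it, 10 of 12 S100 fold changes were negative (median -0.44). ANXA10 (0.81), S100A16 (-0.86) and ANXA6 (-0.71) were called, and S100A3 was not (adjusted p = 0.0846).

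**Figure D2:**
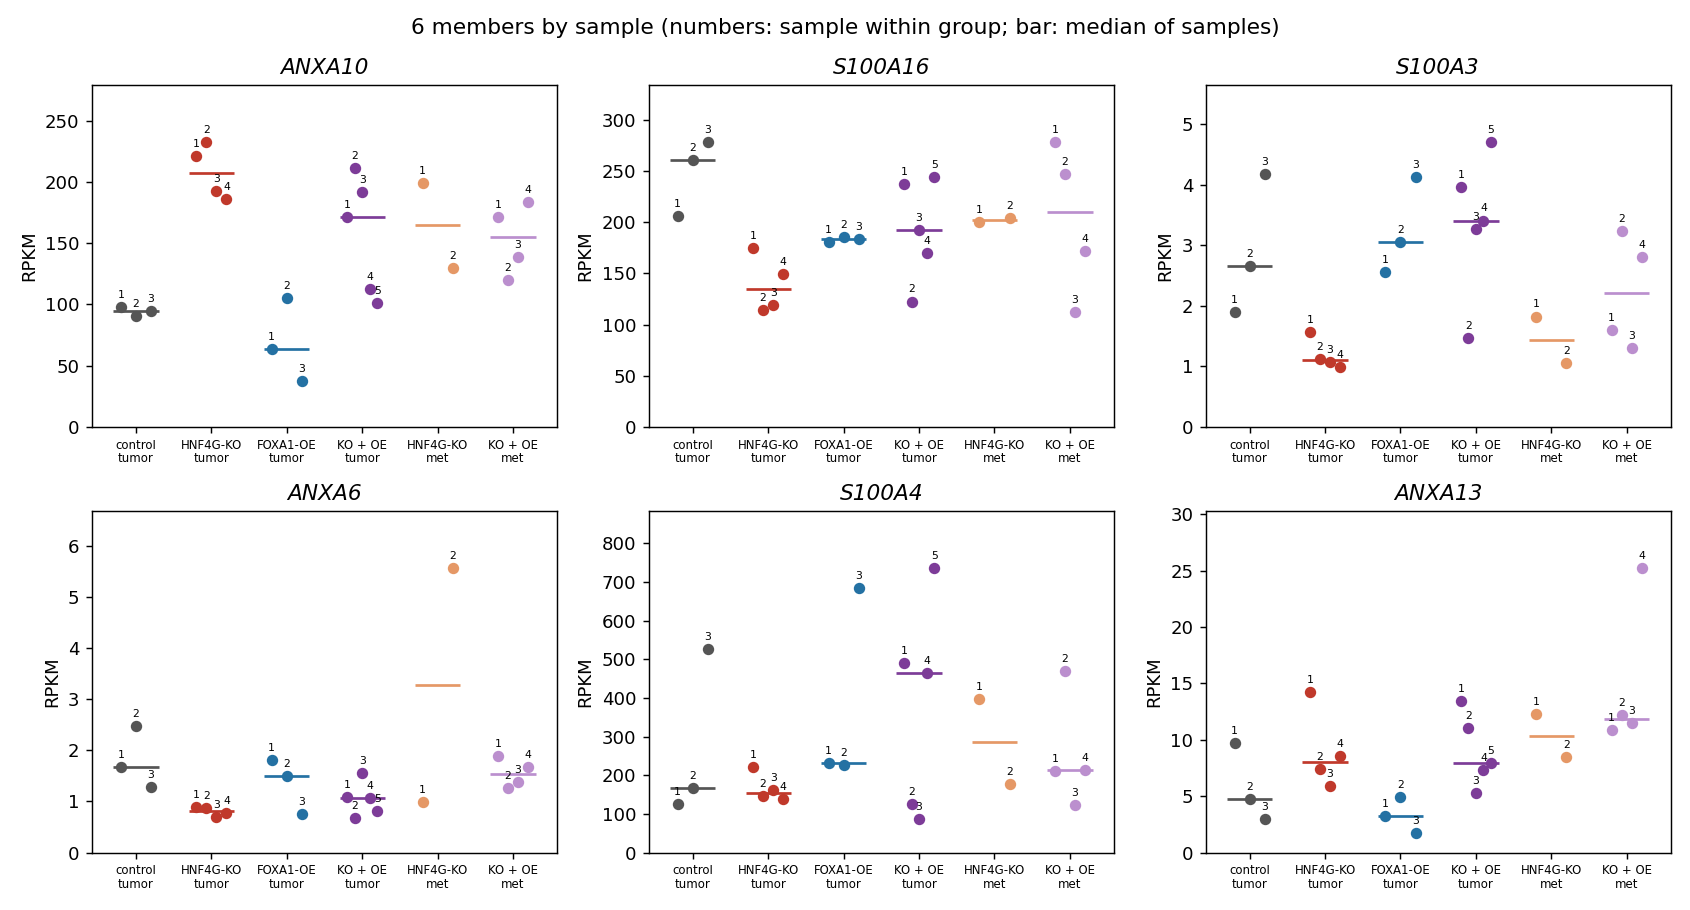
RPKM of 6 members (panels, linear axis from 0) in every HPAF-II sample of the 6 groups; numbers beside points are the sample numbers within a group and bars are medians of samples. ANXA10 is at 186 to 233 RPKM in HNF4G-KO tumors against 90.4 to 97.9 RPKM in control tumors, and S100A4 reaches 526 to 737 RPKM in single tumors of 3 groups.

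FOXA1 overexpression without HNF4G-KO, in 3 tumors against 3 control tumors, left no member past the threshold, and limma called 0% of all genes tested. At an unadjusted p under 0.05 there were 1021 genes, none of them a member. The 3 largest member fold changes were those of S100P (0.90), ANXA3 (-0.64) and S100A2 (0.64), each with an adjusted p of 0.840. S100P, a ligand of the receptor AGER, had values of 218, 216 and 362 RPKM in control tumors against 482, 277 and 835 RPKM under FOXA1-OE. The groups overlapped, since control tumor 3 exceeded tumor 2 of the FOXA1-OE group. S100A2 was at 15.7, 10.8 and 24.4 RPKM in FOXA1-OE tumors, and ANXA3, a membrane-fusion annexin of neutrophils and epithelium, at 56.7, 40.0 and 13.2 RPKM against 44.1 to 57.7 RPKM in controls. In each of these genes tumor 3, where FOXA1 mRNA was not raised, was the extreme. That tumor also held the highest S100A4 (685 RPKM), S100A13 (84.2 RPKM) and S100A5 (7.72 RPKM) of the group and the lowest values of 10 annexins. Without it and HNF4G-KO + FOXA1-OE tumor 5, the median S100 fold change was 0.01 and the median annexin fold change -0.02, where all 3 tumors gave 0.16 and -0.32.

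FOXA1 overexpression was then compared within HNF4G-KO, in 4 mice against 4. No member passed, with 0.106% of all genes called. All 12 S100 fold changes were positive, with a median of 0.58 beside -0.02 over all genes, and 4 of 11 annexin fold changes were (median -0.19). S100A3 had the smallest adjusted p (0.0975) at a log2 fold change of 1.04 (SE 0.21). It was at 3.96, 1.47, 3.26, 3.41 and 4.71 RPKM in tumors 1 to 5 of the HNF4G-KO + FOXA1-OE group, where tumors 2 and 3 grew in the same mouse, against 0.996 to 1.57 RPKM in HNF4G-KO tumors. Taken by mouse the groups did not overlap (two-sided exact permutation p = 0.0286, the smallest that 4 against 4 allow).

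S100A11 had a log2 fold change of 0.92 (adjusted p = 0.212), from 1001 to 1303 RPKM in HNF4G-KO tumors to 1782 to 3629 RPKM, also without overlap. S100A4, a regulator of myosin and cell motility, had the largest fold change (1.15, adjusted p = 0.301) and the widest spread: 490, 125, 88.0, 464 and 737 RPKM in tumors 1 to 5, against 139 to 222 RPKM in HNF4G-KO tumors. Tumors 2 and 3 were below all HNF4G-KO tumors and the other 3 well above. S100A5, a neighbor of S100A4 in the cluster, had a fold change of 1.01 (adjusted p = 0.255), S100A13 one of 0.82 and S100A16 one of 0.52. S100A4 also varied most within groups over all human samples, with an SD of 0.895 on the log2 scale, against 0.176 for ANXA11, the least variable member.

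This comparison shares its HNF4G-KO tumors with that against control, so that opposite signs in the 2 are not separate observations. With total RPKM as a covariate all 12 S100 fold changes stayed positive (median 0.43), but so did all 11 annexin fold changes, which were negative for 7 without it. Without tumor 5 and FOXA1-OE tumor 3 the S100 median was 0.40, again with all 12 positive, and no member was called in either fit.

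**Figure D3:**
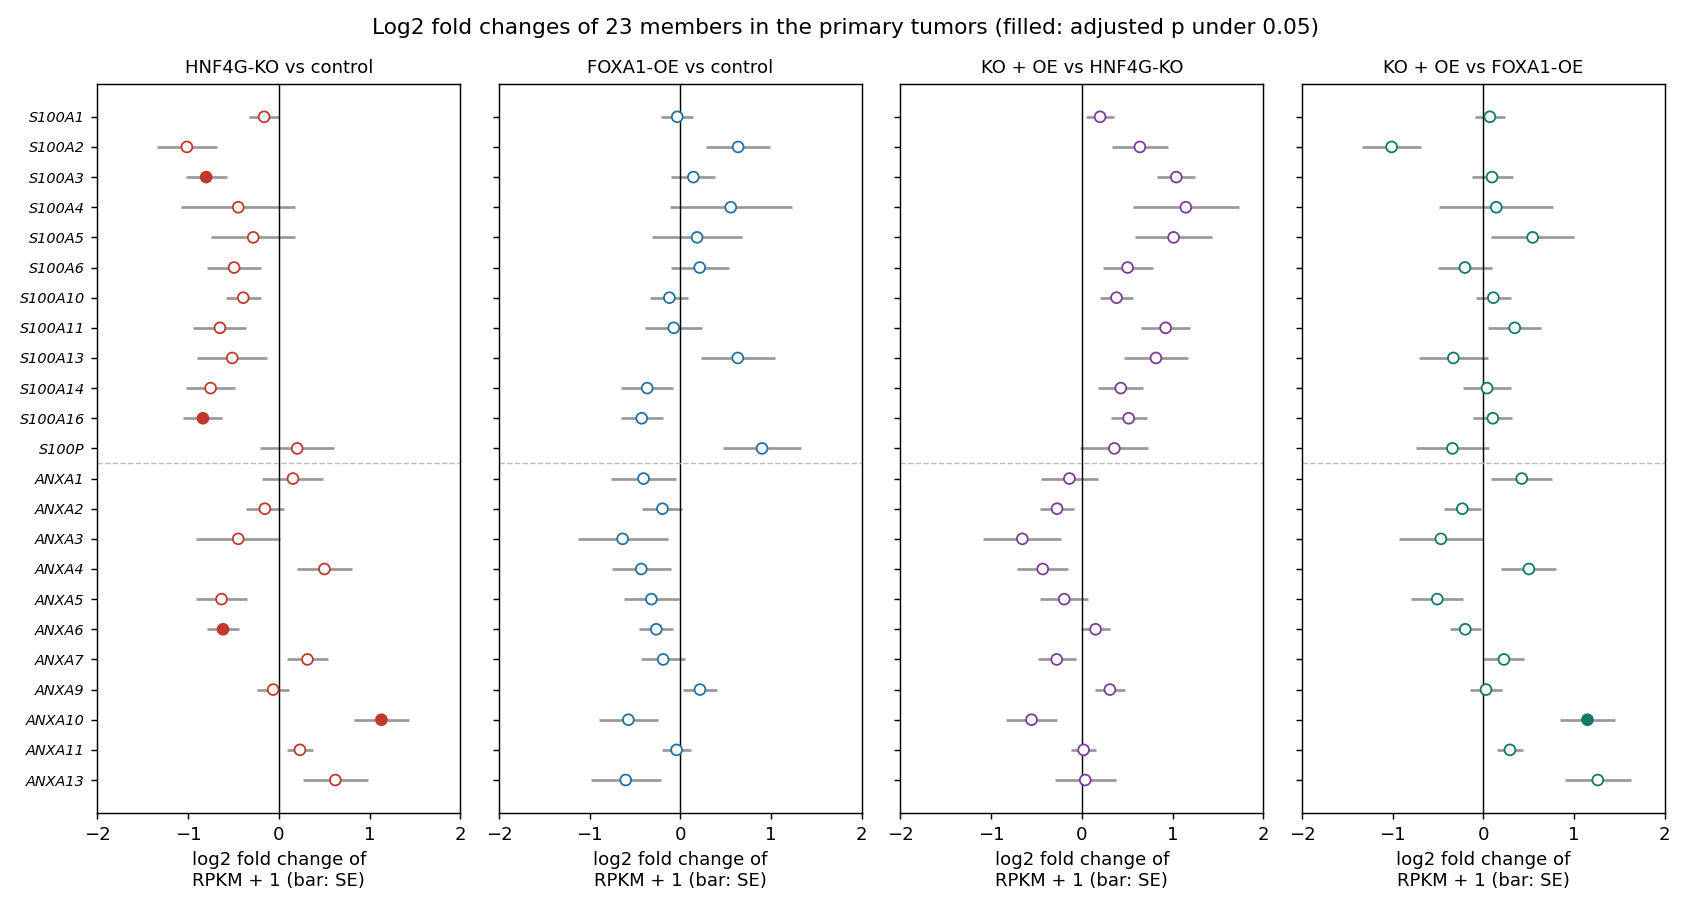
Log2 fold changes of RPKM + 1 (points, with SE as bars) of the 23 members in 4 comparisons of primary tumors, S100 genes above and annexins below the dashed line; filled points passed an adjusted p of 0.05 and KO + OE stands for HNF4G-KO + FOXA1-OE. Filled points are ANXA10, S100A16, S100A3 and ANXA6 in the first panel and ANXA10 in the last, and all 12 S100 points lie above 0 in the third.

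Set against control tumors, HNF4G-KO + FOXA1-OE tumors had no member called, with 3.7% of all genes called. FOXA1 itself was, at a log2 fold change of 2.43 (adjusted p = 0.0120). The 3 members of largest fold change were ANXA3 (-1.10, adjusted p = 0.230), ANXA5 (-0.83, adjusted p = 0.137) and S100A5 (0.73, adjusted p = 0.444). ANXA5 was at 58.8, 72.5, 90.8, 73.1 and 39.9 RPKM in the 5 tumors, each below the 107 to 112 RPKM of the controls. ANXA3 was at 28.3, 27.1, 36.6, 27.1 and 10.0 RPKM, also each below the lowest control (44.1 RPKM). Tumor 5 was the lowest in both genes, and without it and FOXA1-OE tumor 3 ANXA5 passed the test (-0.63, adjusted p = 0.0234). ANXA10, at 101.5 to 211 RPKM, was above every control tumor (0.58, adjusted p = 0.353).

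HNF4G-KO within FOXA1 overexpression gave 1 member called, ANXA10, where 6.77% of all genes were called. ANXA10 was at 63.3, 105.5 and 37.4 RPKM in FOXA1-OE tumors and at 171, 211, 192, 113 and 101.5 RPKM in HNF4G-KO + FOXA1-OE tumors. The groups overlapped between FOXA1-OE tumor 2 and HNF4G-KO + FOXA1-OE tumor 5 (two-sided exact permutation p = 0.114). The log2 fold change was 1.15 (SE 0.31, limma adjusted p = 0.0388), beside 1.13 for the knockout without FOXA1-OE. In a fit of these 2 groups alone it did not pass (adjusted p = 0.260), nor without FOXA1-OE tumor 3 (0.78, adjusted p = 0.123), FOXA1-OE tumor 1 (adjusted p = 0.107), HNF4G-KO + FOXA1-OE tumor 1 (adjusted p = 0.0886) or tumors 2 and 3 (adjusted p = 0.0908). Without both FOXA1-OE tumor 3 and HNF4G-KO + FOXA1-OE tumor 5 it was 0.94 (adjusted p = 0.0514). ANXA13 was at 3.27, 4.92 and 1.74 RPKM in FOXA1-OE tumors and 13.4, 11.1, 5.32, 7.33 and 7.99 RPKM in HNF4G-KO + FOXA1-OE tumors. These did not overlap, and its log2 fold change of 1.26 was the largest here (adjusted p = 0.0527). S100A2 had a fold change of -1.01 (adjusted p = 0.0846). S100A16, which fell in the knockout alone, was at 181 to 186 RPKM in FOXA1-OE tumors and 123 to 244 RPKM in HNF4G-KO + FOXA1-OE tumors (fold change 0.11). Of the 12 S100 fold changes, 8 were positive, with a median of 0.08.

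Whether the effect of FOXA1 overexpression differed with and without HNF4G-KO was tested as an interaction. No member passed, with 0.0352% of all genes called. The S100 median was 0.55, with 11 of 12 positive, beside -0.02 over all genes, and the annexin median was 0.06. S100A16 (0.94, unadjusted p = 0.00796), S100A3 (0.90) and S100A11 (1.00) had adjusted p-values of 0.403, 0.441 and 0.495. With total RPKM as a covariate the S100 median was 0.17 and that of annexins 0.52, with 9 of 12 and 11 of 11 positive, so the split between the families depended on how total RPKM was handled. In simulated data with the spread of these tumors, this test called 7.5% of those genes whose interaction was set to 1 on the log2 scale, so changes of this size would mostly be missed.

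Partners of both families were tested from a list of 24 genes: receptors such as AGER and the formyl peptide receptor FPR1, the plasminogen system of the S100A10-ANXA2 complex, and cytoskeletal and other binding partners. Of 19 that were tested in HPAF-II, none passed in any of the 9 comparisons. The most with an unadjusted p under 0.05 were 5 of 19, in HNF4G-KO + FOXA1-OE against FOXA1-OE, where 22.4% of all genes had one. None of 11 relatives, among them the S100 fused-type gene FLG and S100A12, reached 0.3 RPKM in HPAF-II. In the KPC lines 18 partners and 1 relative were tested and none passed. The ratio of S100A10 to ANXA2, on RPKM, was 1.80 to 2.38 in control tumors, 1.51 to 1.94 in HNF4G-KO tumors, 1.82 to 2.88 in FOXA1-OE tumors and 2.19 to 4.01 in HNF4G-KO + FOXA1-OE tumors. It was higher in every HNF4G-KO + FOXA1-OE mouse than in the HNF4G-KO tumors (log2 difference 0.66, exact permutation p = 0.0286, adjusted p = 0.267 over 14 ratio comparisons). For S100A11 to ANXA1 the ranges were 8.15 to 11.9 in control tumors and 3.97 to 7.54 in HNF4G-KO tumors, which did not overlap (log2 difference -0.81, exact permutation p = 0.0571, adjusted p = 0.267). They were 8.53 to 25.6 in FOXA1-OE tumors, highest in tumor 3, and 4.48 to 35.9 in HNF4G-KO + FOXA1-OE tumors, highest in tumor 5. In both ratios the S100 gene is the shorter, and the part of the share of RPKM in short genes was not tested.

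Metastases were compared with tumors of the same genotype. HNF4G-KO metastases 1 and 2 came from the mice of tumors 2 and 4. Of the HNF4G-KO + FOXA1-OE metastases, 1 (spleen) and 2 (peritoneal fat) came from the mouse of tumor 1, 4 (peritoneum) from that of tumor 4, and 3 (peritoneal fat) from a mouse with no tumor here. In HNF4G-KO, 2 metastases against 4 tumors, no member passed and 0% of all genes were called. At an unadjusted p under 0.05, 2582 genes and 1 member, ANXA6, stood out. The 3 largest fold changes were those of ANXA6 (1.00, adjusted p = 0.275), S100A14 (0.73) and S100A4 (0.69). ANXA6 was at 0.990 RPKM in metastasis 1, just above the highest tumor, and at 5.57 RPKM in metastasis 2, the highest value of all 21 samples. Metastasis 2 also held the highest host fibroblast marker sum (328.7 RPKM, against 58.5 RPKM in metastasis 1) and a host muscle marker sum of 166.5 RPKM. The part of the muscle markers in the ANXA6 value was not tested. With the host fibroblast markers as a covariate no member passed. Without metastasis 1 ANXA6 passed (1.86, adjusted p = 7.03e-05), which then rests on metastasis 2 alone. S100A14 was at 442 and 301 RPKM in the 2 metastases and 181 to 322 RPKM in the tumors, and S100A4 at 396 and 177 RPKM against 139 to 222 RPKM. In both genes metastasis 1 was the higher and metastasis 2 lay within the range of the tumors. Of the 12 S100 fold changes, 10 were positive, with a median of 0.42 beside -0.07 over all genes. With the host fibroblast markers as a covariate 11 were positive, with a median of 0.74. The share of RPKM in short genes was 36.9% and 38.9% in the metastases and 24.0% to 29.8% in the tumors, without overlap. Its part was not tested.

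In HNF4G-KO + FOXA1-OE, metastases of 3 mice against tumors of 4, no member passed, with 0.0151% of all genes called. All 12 S100 fold changes were below 0, with a median of -0.62 beside 0.01 over all genes, and 9 of 11 annexin fold changes were positive (median 0.27). The 3 largest were those of S100P (-1.22, adjusted p = 0.498), S100A2 (-0.95, adjusted p = 0.452) and S100A13 (-0.94, adjusted p = 0.513). S100P was at 227, 284, 136 and 123 RPKM in metastases 1 to 4 and at 529, 206, 220, 281 and 658 RPKM in tumors 1 to 5. S100A2 was at 2.82, 4.76, 3.31 and 3.18 RPKM in metastases and 6.82, 3.18, 6.52, 6.95 and 13.9 RPKM in tumors, and taken by mouse the groups did not overlap. S100A13 was at 19.8, 26.6, 11.9 and 19.5 RPKM in metastases and 33.7, 14.1, 23.9, 41.5 and 53.8 RPKM in tumors, with tumors 2 and 3 inside the range of the metastases. These tumors differed more widely in the share of RPKM in short genes, 25.2% to 53.8%, than the metastases, at 31.5% to 35.9%. FOXA1 mRNA in 3 of the 4 metastases was also low, as given above, and its part was not tested. Host fibroblast marker sums had a median of 44.9 RPKM (34.4 to 94.2 RPKM) in the tumors and 128 RPKM (56.8 to 182 RPKM) in the metastases. With these markers as a covariate the S100 median was -0.29, with 10 of 12 negative, and no member passed.

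Over both genotypes together no member passed, with 0.0804% of all genes called. The S100 median was -0.09, with 5 of 12 fold changes positive. With the host fibroblast markers as a covariate it was 0.17, with 9 of 12 positive, so its sign depended on this choice. ANXA6 (0.67, adjusted p = 0.350), S100P (-0.77, adjusted p = 0.475) and S100A2 (-0.51, adjusted p = 0.499) had the largest fold changes. In the 4 mice with both a tumor and a metastasis, ANXA6, S100A14, S100A16, ANXA2, ANXA7, ANXA11 and S100A1 were higher in the metastasis in 4 of 4 mice and ANXA1 was lower in 4 of 4. These were 7 and 1 of 23 members, where 6.5% and 13.7% of all 19900 genes had the same pattern. The within-mouse differences of S100A16 ran from 0.02 to 0.80 and those of ANXA1 from -0.59 to -0.09 on the log2 scale. No member was called when the mouse was held as a block. S100A11 was higher in the metastasis in both HNF4G-KO mice (0.99 and 0.15) and lower in both HNF4G-KO + FOXA1-OE mice (-0.25 and -0.22). S100A2, S100A3, S100A4 and S100A13 had the same signs in these mice. The share of all genes with this pattern was not worked out, so it is a description and no result about these members.

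In the KPC lines S100a6 was the highest S100 gene, at 1153 to 2518 RPKM, and Anxa5 and Anxa2 the highest annexins, at 347 to 505.5 and 257 to 472 RPKM. S100a8, at a mean of 0.313 RPKM, was just inside the limit, and S100a9, S100g and S100z were under it. Symbols for S100a7 and S100p have no row in the KPC table, where their relative S100a7a reached 76.2 RPKM in the tumor line.

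Before the lines are compared, it must be said that replicates of each line split in pairs. Anxa13 was at 186 and 187 RPKM in replicates 1 and 2 of the tumor line but at 7.40 and 11.2 RPKM in replicates 3 and 4. In the liver metastasis line it was at 11.6 and 9.48 RPKM in replicates 1 and 2 and at 174 and 186 RPKM in replicates 3 and 4. Replicates 3 and 4 of each line thus resembled replicates 1 and 2 of the other in this gene. The labels give no reason, and no sample was moved to another group.

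Taken by the labels, liver metastasis line against tumor line, no member passed and 0% of all genes were called, with 213 genes at an unadjusted p under 0.05 and no member among them. The 3 largest fold changes were those of Anxa5 (-0.23), S100a11 (-0.22) and Anxa6 (-0.22), each with an adjusted p of 1.0. The pairs of replicates were also fitted alone, a split made because the libraries were known to part this way, so the values within it are descriptions and no test of the lines. In replicates 1 and 2 alone, 9 of 25 members were called, where 16.7% of all genes were. In replicates 3 and 4 alone 1 was, where 0.366% were. Anxa13 had a log2 fold change of -4.03 in the former and 4.16 in the latter. Of the 25 members, 20 had opposite signs in the 2 pairs (80%), near the 73.2% of all genes tested that did, so the count is no result about the members.

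S100a4 ran the other way from Anxa13. It was at 191 and 192 RPKM in tumor line replicates 1 and 2, 555 and 732 RPKM in tumor line replicates 3 and 4, 620 and 635 RPKM in liver metastasis line replicates 1 and 2 and 193 and 200 RPKM in replicates 3 and 4. The log2 fold change was 1.71 in replicates 1 and 2 and -1.69 in replicates 3 and 4. Anxa10 was at 45.0 and 48.2 RPKM in tumor line replicates 1 and 2 against 24.5 and 22.8 RPKM in the liver metastasis line (-0.95), and had a fold change of 1.15 in the other pair. S100b (1.17), S100a10 (0.55), S100a16 (0.42) and Anxa8 (0.38) were also called higher in replicates 1 and 2, and S100a6 (-0.69) and Anxa4 (-0.32) lower. All 6 had the opposite sign in replicates 3 and 4, where none passed.

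**Figure D4:**
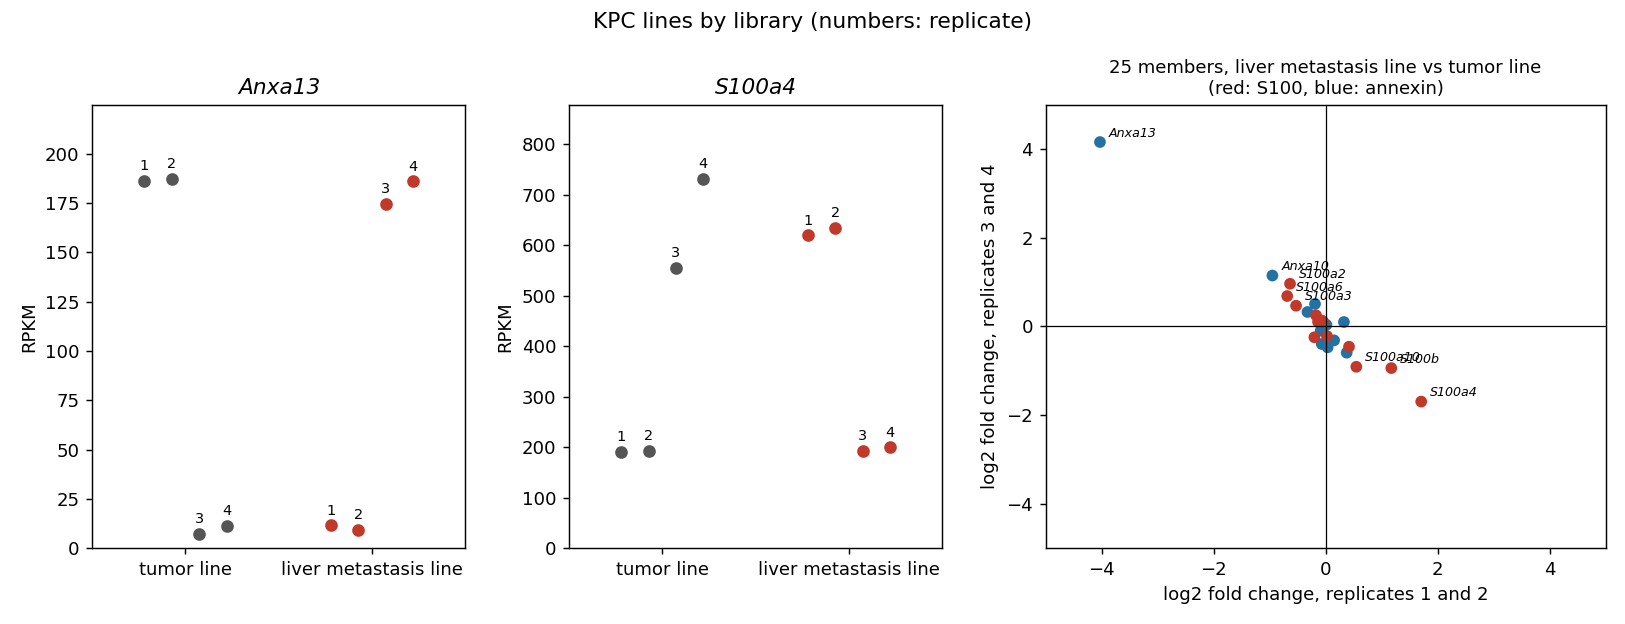
RPKM of Anxa13 and S100a4 in the 8 KPC libraries (left and middle; numbers are replicates) and log2 fold changes of 25 members between the lines in replicates 1 and 2 (horizontal) against replicates 3 and 4 (vertical). Anxa13 is at 7.40 to 11.6 RPKM in 4 libraries, 2 of each line, and at 174 to 187 RPKM in the other 4, and 20 of 25 points have opposite signs on the 2 axes, as did 73.2% of all genes.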

How the data were processed

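RNA was sequenced from 21 HPAF-II samples and 8 KPC libraries (stranded mRNA kit). The authors deposited RPKM values per gene. The submitters' processing notes name STAR 2.6.1a, featureCounts 2.0.4 and DESeq2; whether strand was used in counting is not given in the sources used here. The study's methods state GRCh37 for the human genome, whereas coordinates here are those of GENCODE 44 (GRCh38) and M21 (GRCm38), in which 58250 of 58719 human and 54409 of 54446 mouse IDs were found ignoring versions. Of the KPC columns, 12 that match no sample used here were left out.

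Genes averaging 0.3 RPKM or more were analyzed as log2(RPKM + 1) with limma 3.58.1 (R 4.3.3, trend on the mean), with an adjusted p threshold of 0.05. Samples of a mouse and kind were averaged. Primary tumors entered 1 fit (6 comparisons), both genotypes with metastases another (3), and the KPC lines a separate one. Fold changes understate low genes. Replicates of a line are not stated to be separate cultures. Single genes had two-sided exact permutation tests (scipy 1.17.1). Members and lists were chosen with earlier results of these data known. Members with an adjusted p under 0.05 in a comparison, or the 3 of largest fold change where none was called, are given by sample, beside others whose values bear on a result. In simulated data with changes set to 1 on the log2 scale, the test called 42% to 56% of changed genes between pairs of tumor groups. For metastases it called 33% in HNF4G-KO, 37.5% in HNF4G-KO + FOXA1-OE and 71.5% over both genotypes. In the KPC lines it called 59%, so that many changes of this size would be missed. The simulated KPC libraries held no split in pairs, so the 59% does not describe differences that run opposite ways in the pairs. Metastases and tumors of a mouse are paired by their animal (correlations of deviations 0.21, 0.25, 0.30 and -0.07). Alternatives are given at the end. Figures were made with matplotlib 3.10.9.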

Additional observations from a re-analysis of the deposited data

Results flagged for a closer look

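In groups of 4, the highest or lowest value was tested for its gap to the others (Dixon's ratio). Among 96 groups tested 5 values stood out, where chance gives about 1 in 20. ANXA13 in tumor 1 of the HNF4G-KO + FOXA1-OE group was at 13.4 RPKM, against 7.33 to 7.99 RPKM in the other mice. In tumor 5 of this group ANXA3 was at 10.0 RPKM, against 27.1 to 31.5 RPKM, and ANXA6 at 0.805 RPKM, against 1.07 to 1.09 RPKM. S100a13 in replicate 3 was low in both KPC lines, at 40.4 RPKM in the tumor line (65.9 to 70.4 RPKM in the others) and 47.8 RPKM in the liver metastasis line (65.9 to 69.1 RPKM in the others).

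S100A11 had fold changes of opposite sign in the genotypes and passed in neither. All HNF4G-KO metastases were above all HNF4G-KO tumors, with a log2 fold change of 0.51 (limma adjusted p = 0.561), and all HNF4G-KO + FOXA1-OE metastases, taken by mouse, were below the tumors, with a log2 fold change of -0.70 (limma adjusted p = 0.547). The difference between the genotypes, -1.20 (standard error 0.46), had a limma adjusted p of 0.317. It was not particular to S100A11: S100A13 (-1.55, limma adjusted p = 0.313) and S100A4 (-1.54, limma adjusted p = 0.402) had larger differences of the same sign. Metastases and tumors also differed in the share of RPKM in short genes, as given above, and its part was not tested.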

How the results depend on the processing

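For HNF4G-KO against control, 4 members were called. The count was 0 with no RPKM filter (adjusted p from 0.0524 to 0.0898), 1 at a log2 fold change of at least 1, 2 with samples of a mouse entered separately, 9 in a fit of only the groups compared, 6 with the host fibroblast list as a covariate (ANXA6 lost, S100A2, S100A11 and S100A14 gained), and 8 without FOXA1-OE tumor 3 and HNF4G-KO + FOXA1-OE tumor 5. It was 0 to 2 when single tumors were left out. For HNF4G-KO + FOXA1-OE against FOXA1-OE, 1 member was called. The count was 0 with no RPKM filter or with only the groups compared, 2 at a mean of at least 1 RPKM, with a common median or with samples entered separately, 3 with the host fibroblast list, 4 with total RPKM as a covariate, and 0 to 3 when single tumors were left out. With the replicate number as a block it was 3 here and 4 for HNF4G-KO against control, where S100A3 was lost (adjusted p = 0.0508) and S100A2 gained. Tumor numbers mark no shared mouse, and deviations of same-numbered tumors correlated at -0.25 to 0.60 over 16 pairs. The mouse as a block changed no count of the metastases. For HNF4G-KO + FOXA1-OE against HNF4G-KO, 1 member was called with the fibroblast list (S100A3). Against control, 1 was called with total RPKM (ANXA10) and 1 without the tumors named above (ANXA5). For metastases, leaving out a mouse gave 0 or 1 member in HNF4G-KO and over both genotypes. The KPC count was 9 in replicates 1 and 2 and 1 in replicates 3 and 4. In replicates 1 and 2, S100a16 (0.42), S100a6 (-0.69), S100a10 (0.55), Anxa4 (-0.32), Anxa10 (-0.95), Anxa8 (0.38) and Anxa13 (-4.03) were called against the sign they had over all replicates, between -0.18 and 0.10. The replicate block left the KPC count at 0, and same-numbered deviations correlated at -0.34 to 0.19. Over all members and alternatives, 4208 of 4368 values kept their call, or stayed uncalled and moved by less than the SD within groups. Most of these values were of members not called in the main fit. The called results were each kept in only 7 to 11 of 18 alternatives. Causes were not tested. RPKM values keep no read numbers, and members near 1 RPKM have the least precision.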
